A study of Macaca fascicularis with 8 samples.

Results

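The HOX cluster genes encode homeodomain transcription factors, and all named members of the HOXA, HOXB, HOXC and HOXD clusters were followed in embryonic stem cells (ESCs) of the cynomolgus monkey. Of 38 named members, 33 had a row in the deposited table of 33121 genes. A member took the row that carried its symbol, which was so for 9 genes, and otherwise the row whose best protein match named that homeobox protein at 85% identity or more, which was so for 24 genes. Where several rows qualified, as for HOXD4, the one with the highest mean over all 8 libraries was taken, so rows were chosen by their level over all libraries and not by their difference between the groups. The 33 genes comprised 9 of HOXA, 10 of HOXB, 9 of HOXC and 5 of HOXD. By position, 6 belonged to paralogue groups 1 to 3, 13 to groups 4 to 8 and 14 to groups 9 to 13. HOXA4, HOXD8 and HOXD11 had no row that met these terms, and the best rows for HOXD1 (84.8% identity) and HOXD10 (82.6%) fell short of the identity required. The member just inside it was HOXA9, at 89.9%.

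Polyadenylated RNA was sequenced in 4 libraries of dome-shaped ESCs and 4 of primed ESCs. Dome-shaped cells grew as raised colonies in the medium named NHSMV, with LIF, bFGF, TGF-beta1, insulin, N2, AlbuMAX, vitamin C and inhibitors of MEK (PD0325901), GSK3 (CHIR99021), p38 (SB202190 and SB203580) and JNK (SP600125), and survived passage as single cells well. Primed cells grew as flat colonies in CESM, in which a human stem cell medium was mixed with conventional monkey ESC medium, and survived such passage poorly. Medium, colony shape and group coincide and cannot be told apart. No genetic change is recorded for either group. Nothing in the labels says that libraries came from separate cultures or animals, so p-values measure only the spread between these libraries, which may be technical. The titles of dome-shaped replicates 1 to 4 are CES1_P15N, CES1_P26N, CES_2-N and CES3_12N, and those of primed replicates 1 to 4 are CES_1Pr, CES_2Pr, CES_3Pr and CES3_12P. What the number after CES stands for is not stated.

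HOX genes lie in clusters whose order along the chromosome matches the order in which they are used along the body axis. Genes at the 3′ end, with low paralogue numbers, are used first and reach into the hindbrain. Genes in the middle mark the trunk, and those at the 5′ end mark the tail and the ends of the limbs. In pluripotent cells the clusters are held silent by Polycomb complexes, and retinoic acid, WNT and FGF signals open them from the 3′ end. HOX proteins bind DNA together with cofactors of the PBX, MEIS and PKNOX families.

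Levels are in RPKM, in which reads are scaled by gene length and library depth. The steps of these values implied between 14402875 and 18078798 reads per library, and between 15141 and 15830 genes per library reached 1 RPKM. On the first principal component (49.3% of the variance), dome-shaped replicates 1 to 3 scored -41 to -40.7, primed libraries scored 28.6 to 37, and dome-shaped replicate 4 lay between them at -9.9. Many results are therefore given both with and without dome-shaped replicate 4, and the others with all libraries unless stated. All 9 pluripotency markers with a row reached 1 RPKM in every library. Their summed level was 1900 to 2880 RPKM in dome-shaped and 2910 to 3440 RPKM in primed libraries. TDGF1 (log2 fold change -2.41, limma adjusted p = 0.0313), DNMT3B (-1.0, 0.0419), ZFP42 (-0.75, 0.0078) and LIN28B (-0.43, 0.0447) were called lower in dome-shaped ESCs, and no marker higher. Of all 15597 genes tested, 7.96% were called lower. TDGF1 stood at 21.8, 80.1, 57 and 273 RPKM in dome-shaped replicates 1 to 4, against 317 to 515 RPKM in primed libraries.

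HOX transcripts were abundant in 3 of the 4 dome-shaped libraries and scarce in every primed library. The summed level of the 33 genes was 54.5, 73.3 and 69.2 RPKM in dome-shaped replicates 1 to 3 and 8.04 RPKM in dome-shaped replicate 4, against 2.05, 4.38, 1.47 and 1.14 RPKM in primed replicates 1 to 4. Every dome-shaped sum thus lay above every primed sum, replicate 4 by the smallest margin. The means were 51.3 ± 29.9 RPKM in dome-shaped and 2.26 ± 1.46 RPKM in primed ESCs (SD, n = 4 each), and dome-shaped replicates 1 to 3 averaged 65.7 ± 9.89 RPKM (SD, n = 3). In bulk RNA, fewer cells that express a gene and less RNA per cell cannot be told apart.

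In dome-shaped replicates 1 to 3 most of this RNA came from the 3′ genes. Paralogue groups 1 to 3 summed to 52.0, 57.5 and 66.8 RPKM in dome-shaped replicates 1 to 3 and to 0.114 RPKM in replicate 4, against 0.318, 1.77, 0.84 and 0.7 RPKM in primed replicates 1 to 4. Groups 4 to 8 summed to 1.81, 11.3, 1.56 and 5.37 RPKM in dome-shaped replicates 1 to 4, against 1.25, 1.71, 0.418 and 0 RPKM in primed replicates 1 to 4. Groups 9 to 13 summed to 0.646, 4.54, 0.861 and 2.55 RPKM in dome-shaped replicates 1 to 4, against 0.482, 0.904, 0.212 and 0.443 RPKM in primed replicates 1 to 4. Replicates 1 to 3 were thus high at the 3′ end, while replicates 2 and 4 were the highest further along the clusters.

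**Figure D1:**
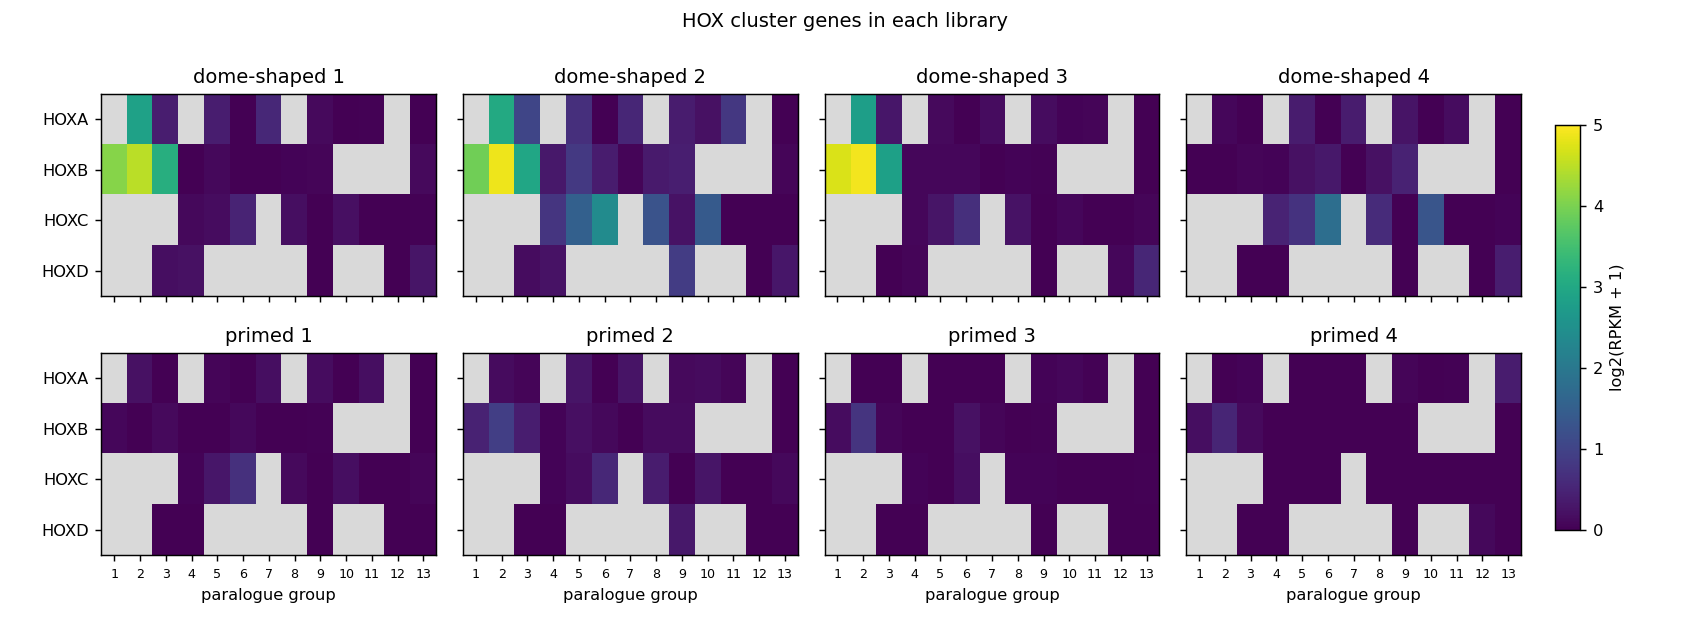
Map of the clusters in each library: rows are the HOXA to HOXD clusters, columns are paralogue groups 1 to 13, and colour is log2(RPKM + 1). The top row holds the 4 dome-shaped and the bottom row the 4 primed libraries, and grey cells hold no gene shown here. HOXB1, HOXB2, HOXB3 and HOXA2 stand out in dome-shaped replicates 1 to 3, and HOXC6 and HOXC10 are brightest in dome-shaped replicates 2 and 4.

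**Figure D2:**
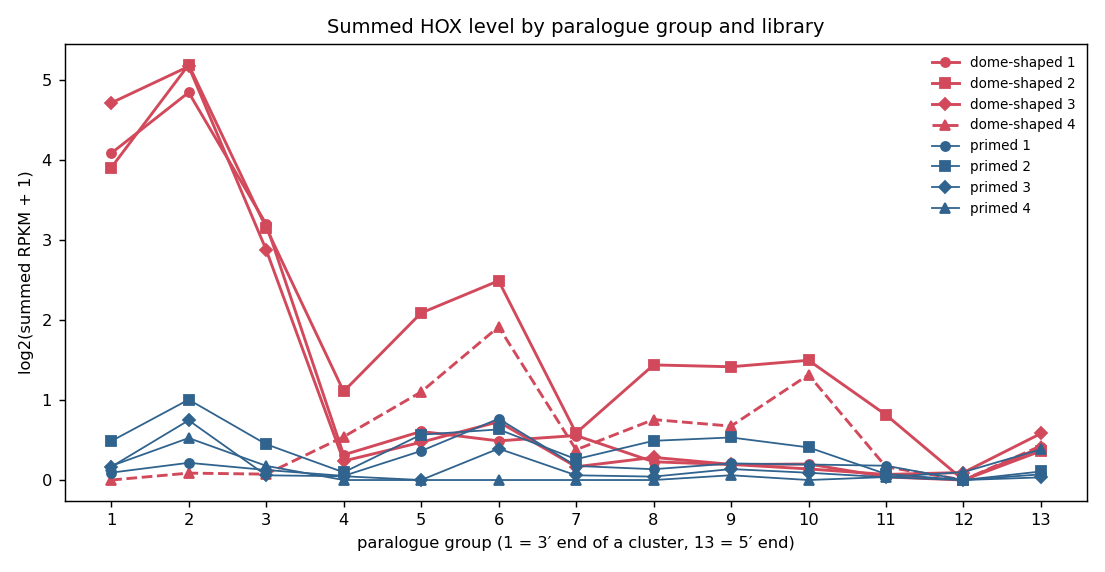
Summed RPKM of the HOX genes in each paralogue group, on the log2(RPKM + 1) scale, with 1 line for each dome-shaped (red) or primed (blue) library. Dome-shaped replicates 1 to 3 drop between group 3 (6.36 to 8.2 RPKM) and group 4 (0.179 to 1.16 RPKM), and dome-shaped replicate 4 (dashed) is low in groups 1 to 3.

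Of the 33 genes, 30 had a value above 0 in some library, and HOXA6, HOXC11 and HOXC12 were listed at 0 in all 8. The mean was higher in dome-shaped ESCs for 27 of these 30 genes and lower for 3. Across all 25576 genes with any value, the dome-shaped mean on the log scale was higher for 13198 and lower for 12378, and the median log2 fold change was 0.20 for the 30 HOX genes and 0.01 for all genes. Only 9 HOX genes reached 1 RPKM in any library, and none did so in a primed library, where the highest value was 0.899 RPKM (HOXB2). None passed the first filter of the test, which asks for 1 RPKM or more in at least 4 of 8 libraries. HOXA2, HOXB1, HOXB2 and HOXB3 reached 1 RPKM in dome-shaped replicates 1 to 3 but not in replicate 4. Member tests are therefore given from the same test with a lower filter (a mean of at least 0.5 RPKM, which 5 HOX genes passed) or none. A gene that is high in 1 group passes such a filter through that group.

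With the filter at a mean of 0.5 RPKM, limma called 1 of the 5 HOX genes higher in dome-shaped ESCs and none lower, where 5.67% of 17694 genes were called higher and 7.47% lower. The gene was HOXA2. Without dome-shaped replicate 4, a comparison added after the values were seen, 4 of the 5 were called higher and none lower, where 7.71% of 17736 genes were called higher and 8.59% lower. These were HOXA2, HOXB1, HOXB2 and HOXB3, the genes that had already been the most abundant in the remaining dome-shaped libraries. With no filter, 1 of 30 was called higher (HOXD13), and none lower, where 2.96% of 25576 genes were called higher and 4.47% lower. Without both the filter and dome-shaped replicate 4, a setting added after the values were seen, 5 of 30 were called higher (HOXD13, HOXA2, HOXB1, HOXB2 and HOXB3) and none lower, where 4.78% of 25416 genes were called higher and 5.23% lower.

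HOXB1 is the first gene of the HOXB cluster and in the embryo marks rhombomere 4 of the hindbrain. It stood at 16.0, 14, 25.3 and 0 RPKM in dome-shaped replicates 1 to 4, against 0.066, 0.401, 0.121 and 0.13 RPKM in primed replicates 1 to 4. Dome-shaped replicates 1 to 3 lay far above all other libraries, and replicate 4, with no read, lay below every primed library, so the groups overlapped. Its log2 fold change was 2.95 (SE 0.87, limma adjusted p = 0.0548), and 4.01 (SE 0.22, limma adjusted p = 7.46e-05) without dome-shaped replicate 4. The second fit leaves out the dome-shaped library where HOXB1 was lowest and was added after the values were seen. Its small p-value is thus no independent support. HOXB1 also passed the filter through dome-shaped replicates 1 to 3. Both limits hold for HOXB2, HOXB3 and HOXA2 below. Behind the HOXB1 levels were 235, 184 and 410 reads in replicates 1 to 3 and 1 to 6 reads in each primed library. A count of 0 in replicate 4 allows up to 0.228 RPKM (3 reads), so each of dome-shaped replicates 1 to 3 was at least 61.2-fold higher than it.

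HOXB2, its neighbour and a hindbrain gene of rhombomeres 3 and beyond, had the highest RPKM of the HOX genes. It stood at 21.5, 28.4, 29.1 and 0 RPKM in dome-shaped replicates 1 to 4, against 0, 0.899, 0.678 and 0.439 RPKM in primed replicates 1 to 4. The same 3 dome-shaped libraries were high, and replicate 4 had no read, as had primed replicate 1. Replicates 1 to 3 carried 141, 167 and 210 reads, fewer than for HOXB1. The row of HOXB2 is 408 bases long, against 915 for HOXB1, so its rank by RPKM rests on that length. The log2 fold change was 3.02 (SE 0.98, limma adjusted p = 0.0712), and 4.21 (SE 0.24, limma adjusted p = 8.21e-05) without dome-shaped replicate 4. The limit of 3 reads in replicate 4 is 0.51 RPKM, so each of dome-shaped replicates 1 to 3 was at least 42.2-fold higher than it.

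HOXB3, the next gene of the cluster, showed the same libraries apart at a lower level. It stood at 7.74, 6.74, 6.13 and 0.0523 RPKM in dome-shaped replicates 1 to 4, against 0.0909, 0.322, 0.0417 and 0.0899 RPKM in primed replicates 1 to 4. Replicate 4 lay within the primed range. The log2 fold change was 2.07 (SE 0.60, limma adjusted p = 0.0513), and 2.79 (SE 0.16, limma adjusted p = 8.84e-05) without dome-shaped replicate 4. After quantile normalization HOXB3 passed with all 8 libraries (2.11, limma adjusted p = 0.0430). HOXB4, which follows HOXB3 in the cluster, had at most 0.256 RPKM in any library (7 reads in dome-shaped replicate 2), so the high levels of HOXB ended between these neighbours.

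HOXA2, the HOXA paralogue of HOXB2 and the only HOX gene of rhombomere 2, stood at 6.31, 7.22, 5.98 and 0.0617 RPKM in dome-shaped replicates 1 to 4, against 0.161, 0.109, 0 and 0 RPKM in primed replicates 1 to 4. Replicates 1 to 3 carried 114 to 119 reads each, replicate 4 had 1 read and the primed libraries had 0 to 3 reads. Replicate 4 lay within the primed range. The log2 fold change was 2.11 (SE 0.58, limma adjusted p = 0.0438), and 2.81 (SE 0.15, limma adjusted p = 7.46e-05) without dome-shaped replicate 4. With all 8 libraries the call was close to the threshold, and it was lost without any single library other than dome-shaped replicate 4 (limma adjusted p 0.0707 to 0.113) and with no filter (0.0738).

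HOXA3, its neighbour and a gene of the caudal hindbrain and pharyngeal arches, stood at 0.32, 1.05, 0.233 and 0 RPKM in dome-shaped replicates 1 to 4, against 0, 0.0419, 0 and 0.0409 RPKM in primed replicates 1 to 4. Its dome-shaped replicates 1 to 3 lay above every primed library, but at a level well below HOXA2. HOXD3 was detected in dome-shaped replicates 1 and 2 alone, at 0.135 and 0.121 RPKM. Levels of HOXA3 and HOXB3 rest on a length that did not give whole reads in this table, so they are given without read counts.

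In all, 6 of the 30 HOX genes with any value had dome-shaped replicates 1 to 3 above every primed library and replicate 4 not above them, namely HOXA2, HOXA3, HOXB1, HOXB2, HOXB3 and HOXD4, where 5.3% of all 25576 such genes did. This pattern was picked after the values were seen and is a description. HOXA2, HOXB1, HOXB2 and HOXB3 together made up 94.6%, 76.9% and 96.2% of the HOX sum in dome-shaped replicates 1 to 3 and 1.42% in replicate 4, against 15.5%, 39.5%, 57.2% and 57.7% of a far smaller sum in primed replicates 1 to 4.

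**Figure D3:**
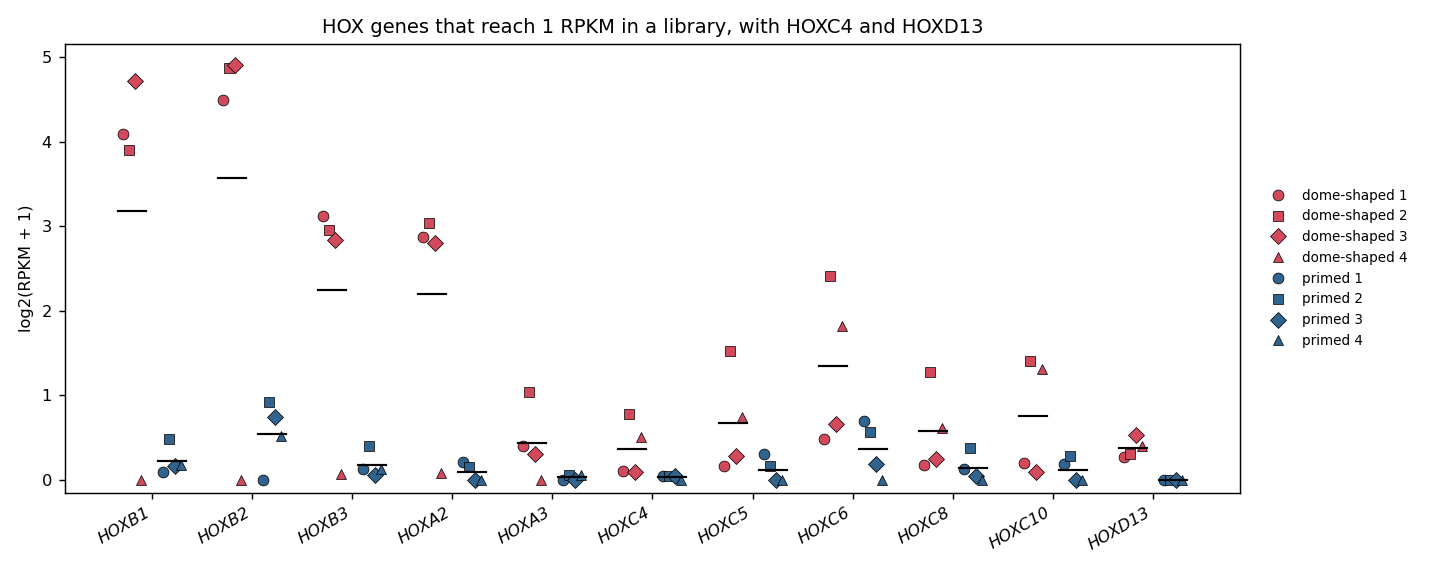
The 9 HOX genes that reached 1 RPKM in a library, with HOXC4 and HOXD13, in log2(RPKM + 1). Red marks are dome-shaped and blue marks primed libraries, the mark's shape gives the replicate, and bars are group means. For HOXB1, HOXB2, HOXB3 and HOXA2 the dome-shaped triangle (replicate 4) sits with the primed marks, and for HOXC5, HOXC6, HOXC8 and HOXC10 the dome-shaped square and triangle (replicates 2 and 4) are the highest.

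Several middle and 5′ genes, led by HOXC6, were highest in other libraries than the 3′ genes. HOXC6, a trunk gene of the thoracic level, stood at 0.404, 4.33, 0.588 and 2.52 RPKM in dome-shaped replicates 1 to 4, against 0.627, 0.476, 0.144 and 0 RPKM in primed replicates 1 to 4. Dome-shaped replicates 2 and 4 were the highest libraries, with 48 and 28 reads, and replicates 1 and 3 lay within the primed range. The difference did not pass the test, with a log2 fold change of 0.98 (SE 0.41, limma adjusted p = 0.143), and 0.83 (SE 0.45, limma adjusted p = 0.24) without dome-shaped replicate 4. HOXC4, HOXC5 and HOXC6 share part of their transcription unit in mammals, and without strand information their reads may be split uncertainly among them.

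The same pair of libraries was highest for other HOXC genes. HOXC5 stood at 0.121, 1.88, 0.219 and 0.672 RPKM in dome-shaped replicates 1 to 4, against 0.234, 0.118, 0 and 0 RPKM in primed replicates 1 to 4. HOXC8, which patterns thoracic vertebrae and motor neurons in the mouse, stood at 0.135, 1.43, 0.184 and 0.527 RPKM in dome-shaped replicates 1 to 4, against 0.0982, 0.298, 0.03 and 0 RPKM in primed replicates 1 to 4. HOXC10, a lumbar gene, stood at 0.149, 1.66, 0.0676 and 1.49 RPKM in dome-shaped replicates 1 to 4, against 0.144, 0.219, 0 and 0 RPKM in primed replicates 1 to 4. For each of these 3 genes, dome-shaped replicates 1 and 3 overlapped the primed libraries. HOXC9, between HOXC8 and HOXC10, was at most 0.181 RPKM.

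HOXC4 was, with HOXD13, 1 of only 2 HOX genes whose groups did not overlap. It stood at 0.075, 0.711, 0.0682 and 0.418 RPKM in dome-shaped replicates 1 to 4, against 0.0364, 0.0368, 0.0333 and 0 RPKM in primed replicates 1 to 4. The lowest dome-shaped and the highest primed values rest on 2 and 1 reads, so their order is within counting error. Across all genes with any value, 8.23% had every dome-shaped library above every primed library, and 8.61% the reverse, which no HOX gene had. Without dome-shaped replicate 4 the dome-shaped libraries lay above every primed library for 8 of the 30 HOX genes with any value, where 13.5% of all such genes did.

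Dome-shaped replicates 2 and 4 were the highest of the 8 libraries for 10 of the 30 HOX genes, namely HOXA9, HOXB5, HOXB6, HOXB8, HOXB9, HOXC4, HOXC5, HOXC6, HOXC8 and HOXC10, where 3.66% of all 25576 such genes were. This pattern too was picked after the values were seen, and the count is a description. All 10 belong to paralogue groups 4 to 10. Most of them had few reads: HOXB9 stood at 0.0552, 0.338, 0.0251 and 0.4 RPKM (2, 11, 1 and 13 reads) in dome-shaped replicates 1 to 4, against 0.0268, 0.108, 0.0245 and 0 RPKM in primed replicates 1 to 4. The HOXC genes made up 70.5% of the HOX sum in dome-shaped replicate 4, and 1.67%, 13.9% and 1.7% in dome-shaped replicates 1 to 3, against 58.0%, 28%, 18.1% and 0% of the smaller sums in primed replicates 1 to 4. Replicate 2, titled CES1_P26N, therefore had both patterns, while replicate 1, whose title carries the same CES number with P15, had the 3′ pattern alone.

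The 5 HOXD genes with a row were low throughout, with no value above 0.857 RPKM (HOXD9 in dome-shaped replicate 2). HOXD13, the last gene of the cluster and a gene of digits and genital tubercle, stood at 0.212, 0.237, 0.45 and 0.316 RPKM in dome-shaped replicates 1 to 4, against 0 RPKM in each primed library. The dome-shaped values rest on 3, 3, 7 and 4 reads. With no filter its log2 fold change was 0.38 (SE 0.06, limma adjusted p = 0.0160), a value that depends on the pseudocount at this level. The call was lost without primed replicate 2 (limma adjusted p = 0.0538) and held without each other library in turn (up to 0.0483).

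The remaining genes that met the rule stayed below 1 RPKM in every library, many of them on a few reads. HOXA5 and HOXA7 reached 0.605 and 0.471 RPKM in dome-shaped libraries, against at most 0.213 and 0.198 RPKM in primed libraries. HOXA11 and HOXB5 reached 0.759 and 0.771 RPKM, both in dome-shaped replicate 2 (25 and 9 reads). The HOX rows outside the rule behaved in different ways. HOXD1's nearest row stood at 0.177 to 0.217 RPKM in dome-shaped and 0.0943 to 0.233 RPKM in primed libraries. HOXD8's row, named only by a lower match, stood at 0.12, 0.535, 0 and 1.34 RPKM in dome-shaped replicates 1 to 4, against 0 RPKM in each primed library. HOXD10's nearest row stood at 0.0623, 0.626, 0.17 and 0.625 RPKM in dome-shaped replicates 1 to 4, against 0, 0.0612, 0 and 0 RPKM in primed replicates 1 to 4. Both were highest in dome-shaped replicates 2 and 4.

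Of 9 cofactor genes of the PBX, MEIS and PKNOX families with a row, MEIS2, MEIS3 and PKNOX2 had the 3′ HOX pattern. Their dome-shaped replicates 1 to 3 lay above every primed library and replicate 4 did not. Of all 25576 genes with any value, 5.3% did so. The pattern was not particular to cofactors. It was seen in 6 of 30 Polycomb genes and 4 of 17 trithorax and looping genes. So it was in 3 of 21 retinoic acid and tailbud genes and 2 of 12 hindbrain and spinal cord genes. No head gene or homeobox gene linked to HOX had it. MEIS2, a HOX partner in the hindbrain, stood at 30.3, 28.4, 33.1 and 0.673 RPKM in dome-shaped replicates 1 to 4, against 0.544, 1.78, 1.05 and 3.12 RPKM in primed replicates 1 to 4. Replicates 1 to 3 were high, and replicate 4 lay within the primed range. The difference did not pass the test with all libraries (log2 fold change 2.62, SE 0.89, limma adjusted p = 0.0793) and did without dome-shaped replicate 4 (3.68, SE 0.30, limma adjusted p = 0.0004). MEIS3 stood at 40.9, 36.2, 34.9 and 2.98 RPKM in dome-shaped replicates 1 to 4, against 12.5, 9.73, 24.6 and 17.1 RPKM in primed replicates 1 to 4, with dome-shaped replicate 4 the lowest of all libraries. The MEIS3 log2 fold change was 0.43 (SE 0.7, limma adjusted p = 0.707), and 1.25 (SE 0.26, limma adjusted p = 0.0155) without dome-shaped replicate 4.

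MEIS1, below the filter, stood at 5.27, 9.31, 5.74 and 0.494 RPKM in dome-shaped replicates 1 to 4, against 0.158, 0.298, 0.104 and 0.224 RPKM in primed replicates 1 to 4, so its groups did not overlap. PKNOX1 stood at 6.38, 10.3, 7.55 and 6.49 RPKM in dome-shaped replicates 1 to 4, against 7.29 to 8.54 RPKM in primed libraries, with replicate 4 not apart from the others. PKNOX2 stood at 5.6, 6.13, 4.95 and 1.49 RPKM in dome-shaped and 2.23, 1.76, 1.31 and 3.89 RPKM in primed replicates (log2 fold change 0.70, SE 0.36, limma adjusted p = 0.217, and 1.05, SE 0.25, limma adjusted p = 0.0254 without dome-shaped replicate 4). PBX2 did not pass the test (-0.33, SE 0.12, limma adjusted p = 0.0978). Of the 7 cofactor genes tested, none was called higher, and 3 were without dome-shaped replicate 4, with a median log2 fold change over all libraries of 0.25, against 0.03 for all 15597 genes tested. Of those, 6.38% were called higher and 7.96% lower. Without dome-shaped replicate 4, 1256 of 15403 genes were called higher and 1440 lower.

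**Figure D4:**
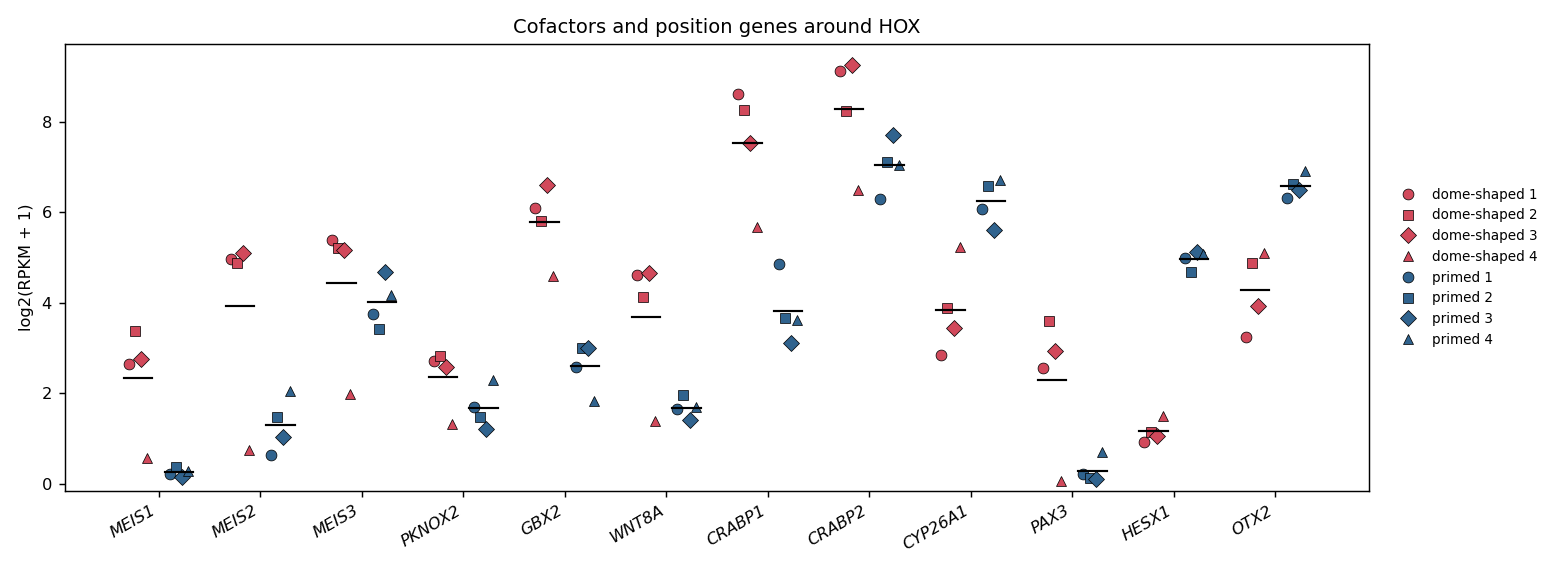
Cofactors of HOX proteins and genes of axial position in log2(RPKM + 1), drawn as in the plot of HOX genes. MEIS1, MEIS2, MEIS3, PKNOX2, WNT8A, CRABP2 and PAX3 are high in dome-shaped replicates 1 to 3 and low in replicate 4, while GBX2 and CRABP1 are higher, and CYP26A1, HESX1 and OTX2 lower, in all 4 dome-shaped libraries than in any primed library.

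Genes of the signals that open HOX clusters moved both ways. Of 15 retinoic acid and tailbud genes tested, 1 rose and 3 fell, with a median log2 fold change of -0.03. Of all 15597 genes tested, 6.38% were called higher and 7.96% lower. Without dome-shaped replicate 4, 3 of the list were higher and 3 lower, where 1256 of all 15403 genes were higher and 1440 lower. CRABP1, a retinoic acid binding protein, rose to 233 ± 148 RPKM in dome-shaped ESCs, against 14.6 ± 9.11 RPKM in primed ESCs (SD, n = 4 each; log2 fold change 3.72, SE 0.61, limma adjusted p = 0.00655). CYP26A1, which degrades retinoic acid, fell to 16.6 ± 13.8 RPKM, against 78.1 ± 25.6 RPKM in primed ESCs (-2.39, SE 0.46, limma adjusted p = 0.0118). DHRS3, a retinaldehyde reductase, changed by -1.37 (SE 0.26, limma adjusted p = 0.0120) and the retinoic acid receptor gene RARG by -0.96 (SE 0.20, limma adjusted p = 0.0168). The RARG call was lost without dome-shaped replicate 2 or primed replicates 2 or 4 (limma adjusted p 0.0502 to 0.0556).

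WNT8A, a ligand of the primitive streak, and CRABP2 showed dome-shaped replicate 4 apart from the others. WNT8A stood at 23.5, 16.4, 24.3 and 1.61 RPKM in dome-shaped replicates 1 to 4, against 2.13, 2.92, 1.64 and 2.25 RPKM in primed replicates 1 to 4 (log2 fold change 2.02, SE 0.64, limma adjusted p = 0.0649, and 2.79, SE 0.19, limma adjusted p = 0.000159 without dome-shaped replicate 4). CRABP2 stood at 556, 303, 613 and 89.1 RPKM in dome-shaped and 77.2, 138, 207 and 132 RPKM in primed replicates (log2 fold change 1.24, SE 0.56, limma adjusted p = 0.166, and 1.84, SE 0.34, limma adjusted p = 0.00954 without dome-shaped replicate 4). CYP26A1 was, at 36.8 RPKM, also nearest to the primed libraries in dome-shaped replicate 4, against 6.14 to 13.8 RPKM in the other dome-shaped libraries. MEIS1, MEIS3, PKNOX1, WNT8A, CRABP2 and the genes PAX3 and CDX1 below were named after their values were seen.

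Of 2 tested homeobox genes linked to HOX, GBX2, a gene of the anterior hindbrain, rose to 67.9, 54.8, 95.8 and 23.3 RPKM in dome-shaped replicates 1 to 4, against 4.99, 7.03, 6.97 and 2.54 RPKM in primed replicates 1 to 4 (log2 fold change 3.18, SE 0.41, limma adjusted p = 0.00287). GBX2 was thus higher in replicate 4 as well, where HOXB1 had no read. CDX4, an activator of trunk HOX genes, overlapped between the groups at 4.91 ± 1.91 RPKM in dome-shaped and 3.78 ± 1.2 RPKM in primed ESCs (SD, n = 4 each; 0.28, SE 0.26, limma adjusted p = 0.505). CDX1, below the filter, stood at 0.688, 2.66, 11.4 and 0.541 RPKM in dome-shaped replicates 1 to 4, against 0.116 to 0.323 RPKM in primed libraries.

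Of 4 tested hindbrain and spinal cord genes, 2 rose, where 6.38% of all 15597 genes tested did. FOXB1 stood at 29.6 ± 6.6 RPKM in dome-shaped and 1.63 ± 1.03 RPKM in primed ESCs (SD, n = 4 each; log2 fold change 3.59, SE 0.27, limma adjusted p = 0.000383). SP8 stood at 15.8 ± 7.89 RPKM in dome-shaped and 3.91 ± 1.7 RPKM in primed ESCs (SD, n = 4 each; 1.72, SE 0.42, limma adjusted p = 0.0276). The SP8 call was lost with no filter (limma adjusted p = 0.0526) and without dome-shaped replicates 1, 2 or 3 or primed replicates 2, 3 or 4 (0.0547 to 0.0746). EGR2, known as KROX20 and an activator of HOXB2 in rhombomeres 3 and 5, stood at 0.27, 1.98, 0.368 and 22.3 RPKM in dome-shaped replicates 1 to 4, against 1.38, 30.1, 15 and 20.5 RPKM in primed replicates 1 to 4 (-1.93, SE 1.03, limma adjusted p = 0.234, and -2.87, SE 0.81, limma adjusted p = 0.0443 without dome-shaped replicate 4). The part of EGR2 in the HOXB2 level was not tested. PAX3, of dorsal neural tube and crest, stood at 4.9, 11.1, 6.68 and 0.0479 RPKM in dome-shaped replicates 1 to 4, against 0.167, 0.0844, 0.0763 and 0.618 RPKM in primed replicates 1 to 4. IRX3 overlapped between the groups (-0.16, SE 0.38, limma adjusted p = 0.814).

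Of the genes of the head, in front of the HOX territory, 2 were tested and both fell, where 7.96% of all 15597 genes tested did. HESX1 stood at 1.26 ± 0.399 RPKM in dome-shaped and 30.5 ± 3.96 RPKM in primed ESCs (SD, n = 4 each; log2 fold change -3.81, SE 0.16, limma adjusted p = 1.7e-05). OTX2 stood at 21.1 ± 11.6 RPKM in dome-shaped and 96.6 ± 17.4 RPKM in primed ESCs (SD, n = 4 each; -2.30, SE 0.37, limma adjusted p = 0.00589). Both were lower in all 4 dome-shaped libraries than in any primed library.

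Of 30 tested Polycomb subunits, 1 rose (PCGF5) and 5 fell, with a median log2 fold change of 0.04. Of all 15597 genes tested, 6.38% were called higher and 7.96% lower. Without dome-shaped replicate 4, 5 subunits were higher and 5 lower, where 1256 of all 15403 genes were higher and 1440 lower. JARID2, a PRC2 partner, fell to 61.5 ± 10.7 RPKM in dome-shaped ESCs, against 139 ± 19.9 RPKM in primed ESCs (SD, n = 4 each; -1.17, SE 0.14, limma adjusted p = 0.00203). PHC1, a PRC1 subunit, fell to 68.0 ± 31.0 RPKM, against 149 ± 16.9 RPKM in primed ESCs (-1.21, SE 0.25, limma adjusted p = 0.0143). Its level in dome-shaped replicate 4, 114 RPKM, was nearer to the primed libraries than the 47.8 to 61.3 RPKM of the other dome-shaped libraries. The PRC1 genes CBX7 (-1.05, SE 0.23, limma adjusted p = 0.0198) and KDM2B (-0.63, SE 0.15, limma adjusted p = 0.0260) also fell. The CBX7 call was lost without dome-shaped replicates 2 or 3 or primed replicates 2, 3 or 4 (limma adjusted p 0.0511 to 0.0582). The KDM2B call was lost without dome-shaped replicates 1 or 2 or primed replicates 2, 3 or 4 (0.0501 to 0.0670).

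Of 17 tested genes of the trithorax group, H3K27 demethylation and chromosome looping, none rose and 2 fell, where 6.38% and 7.96% of all 15597 genes did. Without dome-shaped replicate 4, 2 of the 17 were higher and 2 lower, where 1256 of all 15403 genes were higher and 1440 lower. KDM6A, an H3K27 demethylase, changed by -0.71 (SE 0.17, limma adjusted p = 0.0247), a call lost without dome-shaped replicates 2 or 3 or primed replicate 1 (limma adjusted p 0.0528 to 0.0668). PSIP1, a reader linked to MLL complexes, changed by -0.36 (SE 0.09, limma adjusted p = 0.0289), a call lost without dome-shaped replicates 2 or 3 or primed replicates 2, 3 or 4 (0.0746 to 0.0802). SMC3 (0.36, SE 0.10, limma adjusted p = 0.0514) and SMCHD1 (0.35, SE 0.11, limma adjusted p = 0.0549) did not pass with all libraries and did without dome-shaped replicate 4 (0.44 and 0.45, limma adjusted p = 0.0147 and 0.0113). With all libraries both passed after quantile normalization (limma adjusted p = 0.0476 for SMC3 and 0.0437 for SMCHD1) and SMCHD1 after median-of-ratios rescaling (0.0496). SMC3 also passed without primed replicate 1 (limma adjusted p = 0.0404).

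Markers of other cell types were compared as summed levels, since HOX RNA can come with other cells. Mesoderm markers summed to 15.4 to 27 RPKM in dome-shaped and 17.1 to 28 RPKM in primed libraries, with 3 to 5 and with 4 of 14 genes at 1 RPKM. TBX5 and FOXF1 were at most 0.185 and 0.0283 RPKM in dome-shaped libraries. TCF15 stood at 2.42 to 3.45 RPKM in dome-shaped and 4.99 to 6.78 RPKM in primed libraries. KDR stood at 1.78 to 3.12 RPKM in dome-shaped and 7.21 to 14.7 RPKM in primed libraries. PRRX1, of this list, stood at 0.844, 9.41, 2.3 and 6.39 RPKM in dome-shaped replicates 1 to 4, against 1.64, 1.24, 0.15 and 0.243 RPKM in primed replicates 1 to 4, and was highest in dome-shaped replicates 2 and 4, as HOXC6 and HOXC10 were. Its part in the HOXC levels was not tested.

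Neural ectoderm markers summed to 257 to 371 RPKM in dome-shaped and 215 to 437 RPKM in primed libraries, with 4 or 5 and 3 or 4 of 11 genes at 1 RPKM. PAX6 was at most 0.351 RPKM in dome-shaped libraries, against 0.0313 to 1.55 RPKM in primed libraries. Neural crest markers summed to 59.8 to 112 RPKM in dome-shaped and 56.8 to 132 RPKM in primed libraries, with 6 to 9 and 4 to 7 of 11 genes at 1 RPKM. Of the 12 fibroblast markers, DCN, POSTN and FAP were at most 0.148 RPKM in any library. COL5A1, COL6A1, COL6A3, THY1 and PDGFRB were at least 2.12 RPKM in every library, and LUM reached 11.8 RPKM in primed replicate 3. Fibroblast markers summed to 484 to 759 RPKM in dome-shaped and 262 to 1160 RPKM in primed libraries, with 6 to 8 of 12 genes at 1 RPKM in each group. These sums were carried by single abundant genes, such as TAGLN (422 to 691 RPKM in dome-shaped and 212 to 1060 RPKM in primed libraries) and NES (220 to 324 RPKM in dome-shaped and 201 to 422 RPKM in primed libraries).

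Single markers of these lists, named after their values were seen, were low in dome-shaped replicate 4 as the 3′ HOX genes were. COL3A1, a fibroblast collagen, stood at 3.94, 7.09, 5.7 and 0.218 RPKM in dome-shaped replicates 1 to 4, against 3.91, 0.177, 0.321 and 0.0577 RPKM in primed replicates 1 to 4. PDGFRA, of the same list, stood at 2.34, 5.34, 2.31 and 0.164 RPKM in dome-shaped replicates 1 to 4, against 0.339, 2.1, 1.78 and 0.618 RPKM in primed replicates 1 to 4. Both were highest in dome-shaped replicates 1 to 3, but each only narrowly above its highest primed library. COL5A1, COL6A1 and PDGFRB also had their lowest dome-shaped value in replicate 4, but overlapped the primed libraries in replicates 1 to 3. TAGLN, COL6A3 and THY1 of this list were not lowest there. THY1 was highest there among dome-shaped libraries, at 22.9 RPKM, against 9.71 to 13.7 RPKM in replicates 1 to 3. The neural gene POU3F2 stood at 1.6, 2.75, 1.36 and 0.0539 RPKM in dome-shaped replicates 1 to 4, against 0 to 0.282 RPKM in primed libraries. TUBB3, a neuronal tubulin, stood at 12.8, 30.4, 14.5 and 3.4 RPKM in dome-shaped replicates 1 to 4, against 2.92 to 5.74 RPKM in primed libraries. MSX1, of the crest list, stood at 4.15, 4.72, 4.99 and 0.308 RPKM in dome-shaped replicates 1 to 4, against 0.808 to 4.7 RPKM in primed libraries. For POU3F2, TUBB3 and MSX1 replicates 1 to 3 were above replicate 4, and for POU3F2 and TUBB3 also above every primed library. Others were high in all 4 dome-shaped libraries: TWIST1 stood at 49, 35.8, 30.1 and 68.2 RPKM in dome-shaped replicates 1 to 4, against 1.59 to 7.16 RPKM in primed libraries, and FABP7 at 3.45 to 5.34 RPKM in dome-shaped and 0.552 to 0.886 RPKM in primed libraries. FOXD3, of the crest list, went the other way for replicates 1 to 3, at 1.13, 4.54, 2.72 and 25.5 RPKM in dome-shaped replicates 1 to 4, against 25.4 to 39.3 RPKM in primed libraries. The part of these markers in the HOX levels was not tested.

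Endoderm markers summed to 103, 204, 112 and 22.4 RPKM in dome-shaped replicates 1 to 4, against 91.2 to 393 RPKM in primed libraries, and were lowest in dome-shaped replicate 4, where 4 of 12 genes reached 1 RPKM, as did 10 or 11 in the other dome-shaped libraries and 8 to 12 in primed libraries. Trophoblast and amnion markers summed to 54.9 to 72.9 RPKM in dome-shaped and 59.9 to 117 RPKM in primed libraries, with 3 to 5 and 5 to 8 of 9 genes at 1 RPKM. Blood and endothelium markers summed to 18.7 to 29.7 RPKM in dome-shaped and 4.19 to 12 RPKM in primed libraries, with 2 or 3 and 1 to 4 of 8 genes at 1 RPKM. TEK, a receptor of that list, made up 16.8 to 23.5 RPKM of the dome-shaped and 0.553 to 3.79 RPKM of the primed sums. The part of these cell types in the HOX levels was not tested.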

How the data were processed

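RNA of 8 libraries was measured, and the authors deposited 1 table of RPKM values with gene names, query lengths (another column, in bases), and protein matches with scores and percent identity. Per the submitters' processing notes, Bowtie2 2.0.6, TopHat2 2.0.9 and HTSeq 0.6.1 were used; the sources used here give neither the genome build nor the handling of reads with several hits. Of its 33138 rows, 17 were blank and left out. Symbols of other genes came from the table (4302), from RefSeq's T2T-MFA8v1.1 gene table by protein accession (7354), from the match text (690) or from protein names (70), and 194 of 212 list genes had a row. Close copies may share reads, and without a recorded strand-specific step reads of antisense transcripts cannot be told apart.

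Values were compared as log2(RPKM + 1), dome-shaped minus primed, with limma 3.58.1 in R 4.3.3 (mean trend, two-sided, no covariates, Benjamini-Hochberg over all genes tested, threshold 0.05), which understates changes of low genes. The planned filter of 1 RPKM in at least 4 libraries left 15597 genes and no HOX gene, so members were tested at a mean of at least 0.5 RPKM or with no filter. Scripts were tested on simulated data. The 7 pathway lists, 8 marker lists and all members were chosen with earlier results of these data known; of each pathway list up to 4 tested genes with the smallest adjusted p were named, except 1 that is not reported here. Reads were RPKM times length over the step of each library, whole within 0.02 of a read for 30 of 33 HOX genes, and within 0.01 for 71.6% to 73.4% of all values under 50 reads. Limits from a count of 0 (3 reads) cover counting error only. Deviations of dome-shaped and primed libraries with the same CES number in their titles correlated at 0, -0.02 and -0.09. Libraries that share a number within a group were averaged first, so these values cannot decide whether single libraries were paired. Columns of 3 dome-shaped libraries lacked the ends of their titles and were assigned by the remainder. Alternatives were other pseudocounts, filters and scalings, a block by CES number, summed rows and each library left out.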

Additional observations from a re-analysis of the deposited data

Results flagged for a closer look

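Groups of 4 libraries were examined for 1 value far from the other 3, by Dixon's ratio of the gap to the range, for 29 genes. The ratio was taken on log2(RPKM + 1), while the values below are in RPKM. Of 58 groups 5 stood out, 4 of them through dome-shaped replicate 4. The cut-off is set to flag about 1 in 20 groups of independent, unselected values. These genes share the same libraries and were chosen with earlier results known, so that rate is no measure for these flags. HOXA2 stood at 0.0617 RPKM in dome-shaped replicate 4, against 5.98 to 7.22 RPKM in the other dome-shaped libraries. HOXB2 stood at 0 RPKM in that library, against 21.5 to 29.1 RPKM. HOXB3 stood at 0.0523 RPKM, against 6.13 to 7.74 RPKM. MEIS2 stood at 0.673 RPKM, against 28.4 to 33.1 RPKM. HOXB1, at 0 RPKM there, fell just short of the critical value, since the other dome-shaped libraries differ more among themselves (14 to 25.3 RPKM). SP8 stood at 1.39 RPKM in primed replicate 1, against 4.55 to 5.15 RPKM in the other primed libraries.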

How the results depend on the processing

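No HOX gene passed the planned filter, so the count called higher was 0 there, and 0 without each library in turn; it was 1 with no filter (5 without dome-shaped replicate 4 as well), 1 with a mean of at least 0.5 RPKM and 4 with that filter and without dome-shaped replicate 4, the settings that join 2 choices being added after seeing the data, and no HOX gene was called lower in any of these fits. From the filter at a mean of 0.5 RPKM, over 15 alternatives the log2 fold changes stayed positive, at 2.43 to 4.26 for HOXB1 (called in 1), 2.56 to 4.21 for HOXB2 (1), 1.72 to 3.63 for HOXB3 (2), 1.75 to 4.09 for HOXA2 (6) and 0.63 to 2.16 for HOXC6 (0). The mean HOX sum was 43.9 to 65.7 RPKM in dome-shaped and 1.56 to 2.64 RPKM in primed ESCs with 1 library left out. Of all genes tested, 995 were higher and 1242 lower; leaving out 1 library gave 347 to 1256 higher and 515 to 1440 lower, with 374 and 681 when dome-shaped replicate 2 was omitted, 422 and 687 when dome-shaped replicate 3 was, 347 and 515 without primed replicate 2, 470 and 694 without primed replicate 3, and 461 and 632 without primed replicate 4. Of 77 tested list genes, 5 were higher and 13 lower; the higher count was 3 with no filter, and leaving out 1 library gave 3 to 16 higher and 6 to 14 lower. It was 16 without dome-shaped replicate 4 (17 of 88 with the lower filter as well) and 3 without any other single library except primed replicate 1 (6), and the lower count was 6 to 8 without dome-shaped replicates 2 or 3 or primed replicates 2, 3 or 4. The replicate block by CES number, a number whose meaning is not stated, gave 303 higher and 593 lower genes. It gave 3 higher and 6 lower list genes and no HOX gene, and HOXA2 stood at 1.75 (limma adjusted p = 0.0877) in it. IRX3 (-0.16) turned to 0.05 without dome-shaped replicate 4, with either filter, and to 0.16 without primed replicate 4, uncalled in each, and ranged from -0.41 to 0.16 with 1 library left out. The cause of these shifts was not tested. Depth limits most middle and 5′ genes, which rest on a few reads.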
